A study of Mus musculus with 12 samples.

Results

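The data are described here for 37 genes of the cell cycle, taken by symbol as a fixed list: 9 genes of G1 and its exit (Ccnd1, Ccnd2, Ccnd3, Ccne1, Ccne2, Cdk2, Cdk4, Cdk6, E2f1), 3 inhibitors of cyclin-dependent kinases (Cdkn1b, Cdkn2c, Cdkn1c), 12 genes of DNA replication in S phase (Cdc6, Cdt1, Mcm2 to Mcm7 counted singly, Pcna, Rrm1, Rrm2, Tyms) and 13 genes of G2 and mitosis (Ccna2, Ccnb1, Ccnb2, Cdk1, Cdc20, Plk1, Aurka, Aurkb, Bub1, Bub1b, Top2a, Mki67, Birc5). A probe set counted if its annotation gave 1 gene symbol and that symbol was on the list. This found 87 of the 45101 probe sets of the array, for 36 of the 37 genes. The level of Ccnb1 was not analysed here, but its promoter window is counted below. The levels were MAS5 signals, an array intensity on a linear scale, from mouse embryonic fibroblasts of 2 genotypes, wild type and IRAK4 kinase dead. IRAK4 is the protein kinase that MyD88 recruits to the activated IL-1 receptor, and in the kinase-dead animals the enzyme lacks its catalytic activity. An array does not read that change, so no signal checked the genotype labels directly.

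Each genotype was grown for 4 h without stimulation, or stimulated for 1 h or 4 h with IL-1b (1 ng/ml), always in medium with 10% foetal calf serum. There were 2 arrays in each of the 6 groups, 12 in all, described by the submitters as biological replicates; whether the pair came from separate embryos or separate cultures is not stated, so the p-values measure only the spread between these arrays. No unstimulated group was grown for 1 h, so the 1 h comparisons also differ from their control in culture time. Serum was present throughout and no synchronisation is described, so the cultures held cells at all stages of the cycle, as far as the labels say.

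In background, the D cyclins (Ccnd genes) carry mitogen signals to Cdk4 and Cdk6, which phosphorylate the retinoblastoma protein and free E2F factors. E2F factors then raise the genes of S phase: the origin licensing factors Cdc6 and Cdt1, the Mcm helicase subunits they load, the polymerase clamp Pcna and the enzymes of nucleotide supply. Genes of G2 and mitosis come later and are repressed outside that window through the CHR element of their promoters. Fibroblasts enter or leave this programme with serum and contact, and Cdkn1b (p27) is the inhibitor best known for holding them in G1.

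The promoters of the S phase genes that moved after IL-1b in wild type, and of the G1 gene Cdk6, are shown. They hold, or lack, the E2F letters searched for. RefSeq sequences (build GRCm38.p6) with a window of 300 bases, 250 before and 50 after the gene start, were at hand for 30 of the 37 genes. The E2F motif was TTTCCCGC or TTTGGCGC on either strand, the CHR was TTTGAA or TTCGAA, and the CCAAT box was CCAAT on either strand. Matches of different motifs shared a base in 0 of the 30 windows. An E2F match lay in the window of 6 of 11 S phase genes (54.5%), 1 of 6 G1 genes and 0 of 11 G2/M genes (the G1 gene is Cdk2), against 1.8% of 27025 genes. A CHR match lay in 9 of 11 G2/M genes (81.8%) and 2 of 11 S phase genes, against 21.7% of all. A CCAAT box lay in 90.9% of the G2/M windows and 72.7% of the S phase windows, against 41.1% of all. Below are the 250 bases before the gene start, 5′ to 3′ on the gene's strand, with E2F matches in capitals. Cdc6 has 1 match, beginning 138 bases before the start; Mcm6 has 2, beginning 110 and 47 bases before it. Mcm2, Rrm1 and Cdk6 have none, which says only that these letters are not in this window.
Cdc6 (chr11:98907901-98908150, plus strand): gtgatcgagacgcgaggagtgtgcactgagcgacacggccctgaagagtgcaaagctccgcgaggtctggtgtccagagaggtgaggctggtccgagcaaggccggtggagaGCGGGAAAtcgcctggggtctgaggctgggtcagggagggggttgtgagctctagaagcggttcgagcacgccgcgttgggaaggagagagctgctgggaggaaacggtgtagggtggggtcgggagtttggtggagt
Mcm6 (chr1:128359706-128359955, minus strand): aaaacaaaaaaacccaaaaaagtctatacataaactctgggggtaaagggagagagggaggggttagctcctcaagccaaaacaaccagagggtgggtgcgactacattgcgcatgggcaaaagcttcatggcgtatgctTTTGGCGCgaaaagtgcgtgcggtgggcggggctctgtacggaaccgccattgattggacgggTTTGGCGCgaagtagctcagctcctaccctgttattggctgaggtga
Mcm2 (chr6:88898781-88899030, minus strand): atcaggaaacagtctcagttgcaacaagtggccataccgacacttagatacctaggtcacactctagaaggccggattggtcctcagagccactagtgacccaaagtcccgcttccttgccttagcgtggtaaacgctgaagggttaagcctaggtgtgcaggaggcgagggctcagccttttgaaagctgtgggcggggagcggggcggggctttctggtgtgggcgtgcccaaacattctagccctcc
Rrm1 (chr7:102441445-102441694, plus strand): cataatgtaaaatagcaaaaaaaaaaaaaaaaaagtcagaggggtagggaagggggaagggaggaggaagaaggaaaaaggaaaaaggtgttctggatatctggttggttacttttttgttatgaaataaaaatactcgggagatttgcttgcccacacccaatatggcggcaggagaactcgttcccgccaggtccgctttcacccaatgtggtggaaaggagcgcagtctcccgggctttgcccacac
Cdk6 (chr5:3343643-3343892, plus strand): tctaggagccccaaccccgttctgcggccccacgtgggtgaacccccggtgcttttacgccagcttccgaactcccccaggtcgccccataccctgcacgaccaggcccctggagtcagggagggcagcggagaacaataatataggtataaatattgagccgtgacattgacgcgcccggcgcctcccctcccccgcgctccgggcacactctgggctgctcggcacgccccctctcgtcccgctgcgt

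All 12 arrays were scaled to the same trimmed mean of 150, their median signals ran from 23.0 to 28.3, and replicates correlated at 0.967 to 0.974 over log2 signals. The 3′ to 5′ signal ratio of actin, a measure of RNA integrity, was 2.85 ± 0.0178 (SD, n = 2) in unstimulated kinase-dead arrays and 2.36 to 2.49 on average in the other 5 groups. All 12 fibroblast markers were present in both genotypes, although Pdgfra was at 581 to 811 in wild type and 118 to 183 in kinase-dead cells. Lum (277 to 610 and 56.9 to 81.9) and S100a4 (2630 to 3150 and 1083 to 1609) were lower in kinase-dead cells too. So was Col5a1, by less (1952 to 2365 and 1691 to 1874). The remaining fibroblast markers overlapped between the genotypes. Macrophage markers (10 of 12 reached the median signal on at least 2 arrays) summed to 286 to 322 in wild type and 678 to 870 in kinase-dead cells, and neural markers (7 of 9) to 546 to 635 and 817 to 960. The neural markers did not move together. Fabp7 (26.4 to 38.5 and 185 to 272) and Sox2 (15.1 to 52.1 and 92.0 to 131) were higher in kinase-dead cells, as was Nes. Map2 ran lower there (99.8 to 257 and 72.9 to 119), and Tubb3 and Stmn2 overlapped. Endothelial, epithelial, skeletal muscle and erythroid markers reached that signal for 3 of 8, 3 of 8, 3 of 8 and 1 of 7 genes, with summed signals of at most 116, 167, 121 and 82.9 in wild type and 120, 152, 130 and 70.1 in kinase-dead cells. Xist, expressed from the inactive X chromosome, read 2630 to 3123 on the 6 wild-type arrays and 2.2 to 22.6 on the 6 kinase-dead arrays, while the Y-linked Eif2s3y read 2.2 to 10.6 and 1452 to 1609. Sex of the embryos and IRAK4 genotype therefore cannot be told apart in any comparison between genotypes. The part of the fibroblast, macrophage, neural and actin differences in the genotype results was not tested.

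Of the 36 genes, 28 were at or above 25.5, the median of all values, on all 12 arrays. The other 8 were dim: Cdkn1c reached that signal on 2 arrays and Plk1 on 3, all of them kinase dead, Aurka and Bub1b on 5, Tyms on 7, Cdc6 on 8, Cdc20 and Aurkb on 11. All 36 passed the filter for testing, which asked for 2 arrays, so Cdkn1c and Plk1 entered through kinase-dead arrays alone. Across 12456 genes, a fold change on the log2(signal + 8) scale was called when limma's Benjamini-Hochberg adjusted p was under 0.05. Signals of different probe sets are not levels that can be ranked, so values are compared within a gene. With 2 arrays a group, groups often did not overlap. Of all 12456 genes this held for 6175 in wild type at 1 h, 6330 at 4 h and 7227 from 1 h to 4 h. In kinase-dead cells it held for 6196, 5884 and 6465, and between unstimulated cells for 6508. Lack of overlap is therefore a description only and no support for a change.

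After 1 h of IL-1b, few of these genes passed the test in wild-type cells. Ccna2, the cyclin of S phase and G2 that binds Cdk2 and Cdk1, was the 1 gene called of 36 (0 higher, 1 lower, 2.78%, against 2.91% of all genes called higher and 4.55% called lower). Its signal was 283 and 246 unstimulated, 168 and 188 at 1 h, and 200 and 197 at 4 h. Both 1 h arrays lay below both unstimulated arrays. The log2 change was -0.55 ± 0.16 (SE), adjusted p = 0.0438. That call was near the threshold and stood only without wild-type unstimulated replicate 2 or without either kinase-dead 1 h array: leaving out any of the other 9 arrays gave adjusted p of 0.0559 to 0.235, and it also fell away without the low-signal filter (0.0679).

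Cdc20 and Aurka, of the other G2/M genes, had larger but noisier values at 1 h. Cdc20, the activator of the anaphase-promoting complex, read 77.6 and 101 unstimulated and 45.5 and 34.1 at 1 h, without overlap, a log2 difference of -1.03 ± 0.31 with adjusted p = 0.0564. Cdc20 was called in 5 alternatives, among them the fits without kinase-dead 4 h replicate 1 (adjusted p = 0.0244) or 2 (adjusted p = 0.027). Aurka, the centrosomal mitotic kinase, read 31.5 and 26.1 unstimulated against 17.5 and 3.0, a difference of -1.13 ± 0.54, adjusted p = 0.24. Both genes are dim, and their standard errors show it. Birc5 (survivin), a subunit of the chromosomal passenger complex, read 655 and 695 against 501 and 582, a smaller difference that was not called. The 12 G2/M genes had a median of -0.24 and 9 of them lay below 0, against a median of -0.06 and 57.6% of all genes below 0. Centring the arrays on their medians moved the all-gene median to 0.10 and the G2/M median to -0.08. The G2/M genes then divided evenly about 0, 6 to 6, with their median still below that of all genes.

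G1 genes at 1 h lay mostly on the other side. Of 9, 7 were above 0, with a median of 0.13. Ccnd1 read 742 and 612 unstimulated, 796 and 839 at 1 h, and 620 and 606 at 4 h. Ccnd2 read 3447 and 2992 unstimulated, then 3833 and 3797. Both D cyclins were higher on both 1 h arrays than on both controls, with differences of 0.27 ± 0.10 (adjusted p = 0.129) and 0.25 ± 0.08 (adjusted p = 0.0856), short of the threshold. Arrays lay apart in this way, higher or lower, for 6175 of all 12456 genes. The calls moved with the settings: with arrays centred on their medians Ccnd1 and Ccnd2 were the 2 genes called, both higher (0.44, adjusted p = 0.0476, and 0.41, adjusted p = 0.0452), and Ccna2 was not. They were also called, with Cdkn1b lower, when wild-type unstimulated replicate 1 was left out. With every probe set tested, 1 was called in this comparison, a further Ccnd2 probe set that was higher at 1 h (0.45, adjusted p = 0.0127), and the other Ccnd1 probe sets lay at -0.05 and 0.09. S phase genes had a median of -0.15, 8 of 12 below 0.

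**Figure D1:**
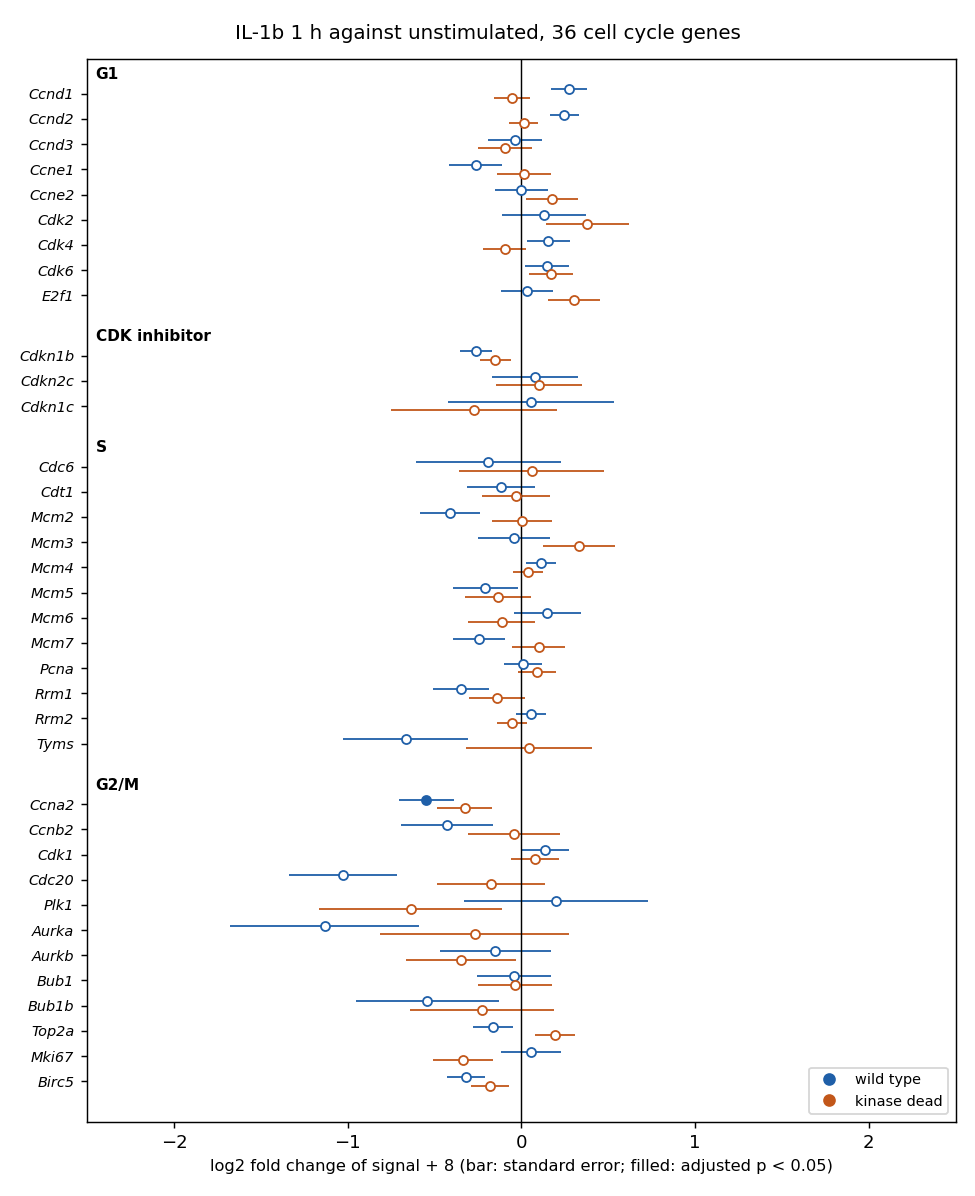
Log2 fold change of signal + 8 after 1 h of IL-1b against unstimulated cells of the same genotype, for 36 genes in 4 classes; points are fitted values, bars standard errors, filled points adjusted p under 0.05. Ccna2 in wild type is the filled point, and Cdc20 and Aurka lie farthest to the left in wild type with wide bars.

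Kinase-dead cells at 1 h gave no call: limma called 0 of 36 genes higher and 0 lower, with 0 at an unadjusted p under 0.05, where 16.6% of all genes passed that level. Of all genes 1.55% were called higher and 1.72% lower. The lowest adjusted p was that of Ccna2 (0.315). Ccna2 read 219 and 222 unstimulated and 207 and 147 at 1 h, a difference of -0.33 ± 0.16, below both controls on both arrays as in wild type. G2/M genes had a median of -0.20, 10 of 12 below 0, beside -0.01 for all genes. The difference between the genotypes' 1 h responses was tested for each gene, and 0 of 36 were called (0.145% of all genes higher and 0.345% lower in kinase-dead cells), with 1 higher and 1 lower at an unadjusted p under 0.05. For Ccna2 that difference was 0.22 ± 0.22.

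The clearest change of these genes came in wild type at 4 h, where Cdk6 rose, Ccnd2 rose, and Cdkn1b, Mcm2, Rrm1 and Cdc6 fell. That is 2 genes called higher (5.56%) and 4 lower (11.1%), beside 4.66% and 7.39% of all genes. Of the 36, 34 lay below 0, where 63.9% of all genes did.

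Cdk6, the catalytic partner of the D cyclins, had the lowest adjusted p of the 36 genes. It read 221 and 249 unstimulated, 251 and 271 at 1 h and 455 and 502 at 4 h. Both 4 h arrays lay far above the other 4 wild-type arrays. The log2 change was 1.00 ± 0.12 (SE, n = 2 arrays a group), adjusted p = 2.91e-05, and the call held in each of 20 alternative fits. A second Cdk6 probe set that passed the filter read the same way (0.85), without a call.

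Ccnd2, another D cyclin, rose less: 3447 and 2992 unstimulated against 4216 and 3915 at 4 h, without overlap. The change was 0.34 ± 0.08, adjusted p = 0.0131. It was lost without wild-type unstimulated replicate 2 (0.24, adjusted p = 0.0699) or wild-type 4 h replicate 1 (0.28, adjusted p = 0.0964), and under quantile normalization (0.20, adjusted p = 0.0502). The 6 other Ccnd2 probe sets that passed lay between 0.11 and 0.28, none called.

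The remaining 7 G1 genes lay below 0 at 4 h and did not pass. Cdk2, the partner of cyclin E and cyclin A, read 65.2 and 112 unstimulated and 52.1 and 50.1 at 4 h (-0.66 ± 0.24, adjusted p = 0.0859). Its 2 unstimulated arrays lay far apart, and without replicate 1 of them the difference was -1.02 and called (adjusted p = 0.0199). Ccnd3 read 184 and 153, then 115 and 122 (-0.47 ± 0.16, adjusted p = 0.0576), and was called without wild-type unstimulated replicate 2 (-0.60, adjusted p = 0.0399). Ccne1, Ccne2, Cdk4, E2f1 and Ccnd1 ranged from -0.35 to -0.14.

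Among the inhibitors, Cdkn1b (p27), which binds cyclin E with Cdk2, fell. It read 1671 and 1881 unstimulated, 1509 and 1448 at 1 h and 1272 and 1328 at 4 h, and the 3 pairs did not overlap. The 4 h change was -0.45 ± 0.09, adjusted p = 0.0033, with a second probe set at -0.41. The call stood whichever single array was left out and fell away only in a fit of the 2 groups alone (adjusted p = 0.0659). Cdkn2c (p18), an inhibitor of Cdk4 and Cdk6, read 65.8 and 70.1, then 41.8 and 54.2 (-0.45 ± 0.25, not called). Cdkn1c (p57) was near the floor in wild type, at 5.2 to 12.9 on all 6 arrays.

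Of the S phase genes, all 12 lay below 0 at 4 h, with a median of -0.42 beside -0.12 for all genes; 3 were called, all lower. With arrays centred on their medians 11 of 12 lay below 0 (median -0.35, all genes -0.04), and with quantile normalization 12 of 12. Mcm2, a subunit of the replicative helicase, read 145 and 159 unstimulated, 104 and 122 at 1 h, and 86.2 and 73.6 at 4 h. The 3 pairs did not overlap. The change at 4 h was -0.87 ± 0.17, adjusted p = 0.00308, called in each of 20 alternative fits, with another Mcm2 probe set at -0.45.

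Rrm1, the large subunit of ribonucleotide reductase, read 216 and 238 unstimulated, 181 and 172 at 1 h and 143 and 140 at 4 h, again in 3 separate pairs. It changed by -0.65 ± 0.16, adjusted p = 0.0129, with another Rrm1 probe set at only -0.21, not called. The call was lost without wild-type unstimulated replicate 2 (0.0607) or without 4 h replicate 1 (0.0552) or 2 (0.0708), all adjusted p, with changes of -0.59 to -0.67. Cdc6, the ATPase that loads the helicase, read 45.0 and 42.3 unstimulated, 36 and 38.6 at 1 h, and 23.7 and 2.9 at 4 h. One 4 h array was thus far below the others, near the bottom of the scale. The change was -1.47 ± 0.42, adjusted p = 0.0298, and -0.70 with adjusted p = 0.299 without that array (wild-type 4 h replicate 2). It was lost, too, without unstimulated replicate 1 (-1.44, adjusted p = 0.108) or 2 (-1.51, adjusted p = 0.0743), and under both other scalings.

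The other 9 S phase genes did not pass at 4 h. Mcm3 came closest (-0.65 ± 0.21, adjusted p = 0.0512), at 291 and 178 unstimulated against 146 and 140. It was called without wild-type unstimulated replicate 2 (-0.99, adjusted p = 0.00445). Mcm6, at 224 and 150 against 149 and 112, lay just below its control (-0.48 ± 0.19, adjusted p = 0.125) and was called without the same array (-0.76, adjusted p = 0.0228). Mcm5 read 96.9 and 103 against 74.3 and 65.4 (-0.48 ± 0.19, adjusted p = 0.114), and Tyms (thymidylate synthase) 30.8 and 36.9 against 26.4 and 22.1, both without overlap. Rrm2, the small subunit of ribonucleotide reductase, lay at -0.02, with 3327 and 3218 against 3451 and 3023. Fewer cells in S phase and less of these RNAs in each cell cannot be told apart in such bulk samples.

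The G2/M genes at 4 h lay below 0 in 12 of 12 cases, median -0.25, and limma called 0 of them, with 1 lower at an unadjusted p under 0.05. With arrays centred or quantile normalized, 11 of 12 lay below 0. Ccna2 was the nearest to a call (-0.39 ± 0.16, adjusted p = 0.121). The widest difference was that of Aurka (-0.54 ± 0.54), at 31.5 and 26.1 against 29.4 and 9.1, with overlap. Top2a (topoisomerase II alpha), at 335 and 316 against 303 and 304, and Mki67 (the Ki-67 proliferation antigen), at 170 and 138 against 127 and 129, lay below their controls by -0.10 ± 0.12 and -0.24 ± 0.17. Cdk1, the mitotic kinase, its cyclin Ccnb2, the checkpoint kinases Bub1 and Bub1b, Aurkb and Plk1 ranged from -0.43 to -0.05. Plk1, a kinase of mitotic entry, read 8.2 to 19.6 on the 6 wild-type arrays and 4.8 to 35.6 on the 6 kinase-dead arrays, so it gave no usable order.

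**Figure D2:**
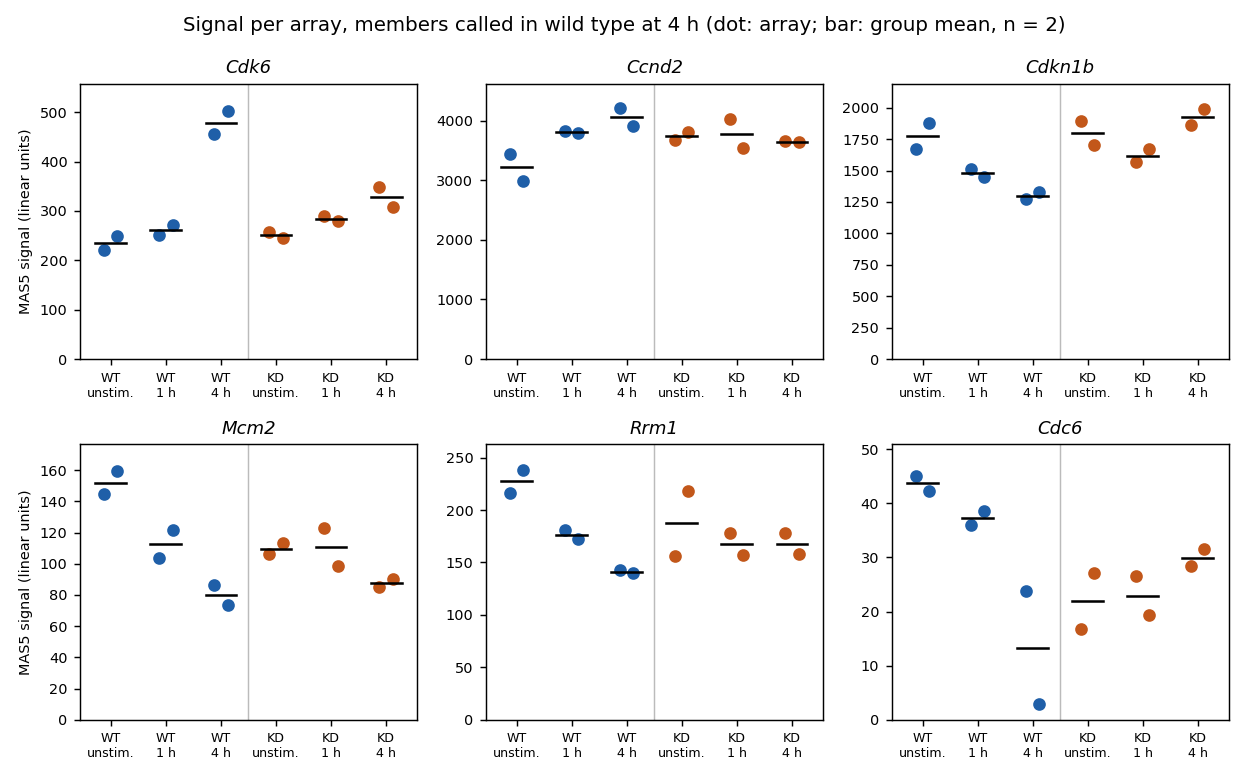
MAS5 signal on each of the 12 arrays for the 6 genes called in wild type after 4 h of IL-1b; dots are arrays, bars group means (n = 2), with wild type left and kinase dead right of the line. Wild-type Cdk6 reaches 455 and 502 at 4 h while kinase-dead Cdk6 reaches 348 and 307, and 1 wild-type 4 h array holds Cdc6 at 2.9.

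**Figure D3:**
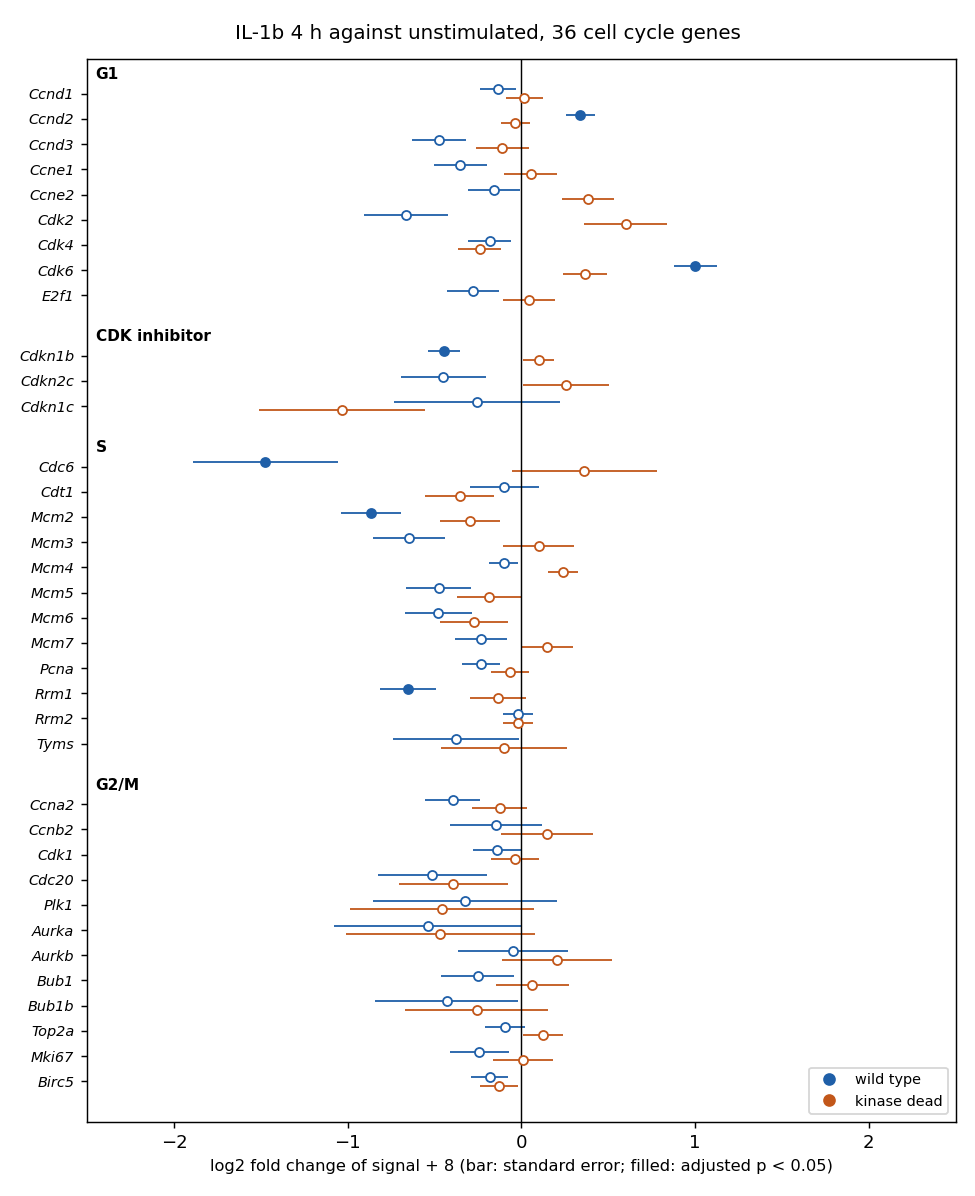
Log2 fold change of signal + 8 after 4 h of IL-1b against unstimulated cells of the same genotype, for 36 genes; points are fitted values, bars standard errors, filled points adjusted p under 0.05. In wild type the S phase and G2/M points all lie left of 0, and 6 points are filled; in kinase-dead cells none is filled.

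Between 1 h and 4 h of IL-1b in wild type, 1 gene was called higher (2.78%, against 8.39% of all genes) and 4 lower (11.1%, against 10.6%). Cdk6 rose by 0.86 ± 0.12, adjusted p = 0.000104, in each of 20 alternatives. Ccnd1, at 796 and 839 and then 620 and 606, fell by 0.41 ± 0.10 on the log2 scale (adjusted p = 0.0101). Both 4 h arrays lay below both 1 h arrays, and one of them lay below both unstimulated arrays. The Ccnd1 call was lost without wild-type 1 h replicate 2 (adjusted p = 0.0886) or 4 h replicate 2 (adjusted p = 0.0629).

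Cdk2 read 91.1 and 97.7 at 1 h and 52.1 and 50.1 at 4 h, without overlap (-0.79 ± 0.24, adjusted p = 0.0288). Leaving out any of those 4 arrays gave adjusted p of 0.0873 to 0.143. Mcm6, another helicase subunit, read 193 and 217, then 149 and 112 (-0.63 ± 0.19, adjusted p = 0.0317). It was lost without 1 h replicate 1 (0.0772) or 2 (0.184), or 4 h replicate 2 (0.256), all adjusted p. For Cdc6 the difference was -1.28 ± 0.42, adjusted p = 0.041, and -0.51 with adjusted p = 0.43 without the low 4 h array. That call was also lost without 1 h replicate 1 (0.134) or 2 (0.166), kinase-dead 1 h replicate 1 (0.0509) or either kinase-dead 4 h array (0.0545 and 0.0546), all adjusted p. In this comparison the G1 median was -0.31, the S phase median -0.26 and the G2/M median 0.10, beside -0.04 for all genes.

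Kinase-dead cells at 4 h again had no call among the 36 genes. Limma called 0 higher and 0 lower, with 4 higher and 1 lower at an unadjusted p under 0.05, where 13.6% of all genes passed that level. Few genes of any kind were called in this comparison, 0.442% higher and 0.177% lower. Cdk6 had the lowest adjusted p (0.192), at 258 and 246 unstimulated, 290 and 279 at 1 h and 348 and 307 at 4 h. All 3 pairs were apart and in the same order as in wild type, and the difference at 4 h was 0.37 ± 0.12. Mcm2 read 106 and 113 unstimulated and 85.4 and 90.3 at 4 h (-0.30 ± 0.17). Rrm1 overlapped, at 156 and 219 against 178 and 158. Cdkn1b read 1894 and 1701 unstimulated, 1568 and 1669 at 1 h and 1859 and 1993 at 4 h, with overlap between control and 4 h. Medians were -0.08 for S phase, -0.08 for G2/M and 0.04 for G1 genes, beside -0.01 for all genes.

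From 1 h to 4 h the kinase-dead cells also gave no call in the 36 genes (0 higher, 0 lower, by limma; 2 higher and 0 lower at an unadjusted p under 0.05), against 2.26% and 1.81% of all genes. The lowest adjusted p was that of Cdkn1b (0.138), which lay 0.25 ± 0.09 above its 1 h value. In a fit of these 2 groups alone Cdkn1b was called (adjusted p = 0.0458), as was Mcm4 (0.21, adjusted p = 0.048).

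The difference between the genotypes' 4 h responses was called for 1 of 36 genes, Cdkn1b (1 higher in kinase-dead cells, 2.78%, against 1.45% of all genes higher and 1.57% lower). The response was -0.45 in wild type and 0.10 in kinase-dead cells, so the difference was 0.55 ± 0.13, adjusted p = 0.024. A second probe set gave 0.50. The call was lost without wild-type unstimulated replicate 2 (adjusted p = 0.0506), wild-type 4 h replicate 1 (0.0854), kinase-dead unstimulated replicate 2 (0.14), or kinase-dead 4 h replicate 1 (0.059) or 2 (0.129), and with arrays centred on their medians (0.40, adjusted p = 0.188). That centring moved the all-gene median of this comparison from 0.10 to -0.04. Under it the 1 gene called was Cdk6, lower in kinase-dead cells (-0.78, adjusted p = 0.0319), so the division of calls into higher and lower turned with the scaling.

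Without that centring Cdk6 missed the threshold in this comparison (-0.64 ± 0.18, adjusted p = 0.0628), as did Cdk2 (1.26 ± 0.34, adjusted p = 0.0546) and Cdc6 (1.84 ± 0.59, adjusted p = 0.114). Each was called without 1 array: Cdk2 without wild-type unstimulated replicate 1 (1.62, adjusted p = 0.00855), Cdk6 without wild-type unstimulated replicate 2 (-0.72, adjusted p = 0.0428) and Cdc6 without wild-type 4 h replicate 1 (2.61, adjusted p = 0.0126). For Mcm2 the difference was 0.57 ± 0.25 and for Rrm1 0.52 ± 0.23, neither called. The wild-type falls of Mcm2, Rrm1 and Cdc6 passed and the kinase-dead changes (-0.30, -0.13 and 0.36) did not, but the responses are not shown to differ. S phase genes lay above 0 here in 10 of 12 cases (median 0.32, all genes 0.10). The wild-type unstimulated arrays enter the wild-type 4 h response, this difference and the comparison of unstimulated cells alike, so these results share samples.

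Unstimulated kinase-dead cells differed from unstimulated wild-type cells in 5 of 36 genes: Ccnd1 and Cdk4 were higher (5.56%, against 7.38% of all genes) and Cdk2, Mcm3 and Mcm7 lower (8.33%, against 6.96%). These shares are close to those of all genes. Ccnd1 read 742 and 612 in wild type and 913 and 879 in kinase-dead cells, without overlap (0.41 ± 0.10, adjusted p = 0.0136). The 2 other Ccnd1 probe sets that passed lay at -0.09 and 0.18, neither called, so they did not share one direction. Cdk4, its catalytic partner, read 692 and 534 against 893 and 761, also without overlap (0.43 ± 0.12, adjusted p = 0.0257). Ccnd1 was lost without wild-type unstimulated replicate 2 (0.27, adjusted p = 0.115), or kinase-dead unstimulated replicate 1 (0.0943) or 2 (0.0512), and Cdk4 without wild-type unstimulated replicate 2 (0.25, adjusted p = 0.231) or kinase-dead unstimulated replicate 1 (0.228).

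The 3 lower genes lay apart from wild type as well. In this comparison the arrays lay apart for 6508 of all 12456 genes, so this is no further support. Cdk2 read 49.8 and 42.1 in kinase-dead cells against 65.2 and 112 (-0.80 ± 0.24, adjusted p = 0.0342). Mcm3 read 147 and 114 against 291 and 178 (-0.78 ± 0.21, adjusted p = 0.0167), and 3 further Mcm3 probe sets lay between -0.58 and -0.24. Mcm7 read 110 and 115 against 165 and 157 (-0.49 ± 0.15, adjusted p = 0.0388). For Cdk2 and Mcm3 the wild-type pair was wide: Cdk2 was -0.44 without wild-type unstimulated replicate 2 (adjusted p = 0.352) and Mcm3 -0.44 without replicate 1 (adjusted p = 0.18).

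Cdk2 was lost, too, without kinase-dead unstimulated replicate 1 (0.0792) or 2 (0.18), Mcm3 without kinase-dead unstimulated replicate 2 (0.161), and Mcm7 without any 1 of the 4 unstimulated arrays (0.0887 to 0.16) or either kinase-dead 1 h array (0.0512 and 0.0515), all adjusted p. With arrays centred on their medians, 2 genes were higher and 1 lower, Cdk2 and Mcm7 having fallen out. None of the 12 S phase genes lay above 0 (median -0.30, all genes -0.02), with 2 of 12 above 0 after centring. The kinase-dead unstimulated arrays are those with the higher actin ratio; its part in these values was not tested.

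Averaged over the 3 conditions, 5 of 36 genes were higher in kinase-dead than in wild-type cells (13.9%, against 18.2% of all genes) and 6 lower (16.7%, against 13.6%). The larger number of arrays, 6 against 6, gave smaller standard errors, and calls were common among all genes in this comparison. The higher calls were Ccnd1, Ccnd3, Cdk4, Cdkn1b and Cdkn1c. Cdkn1c is no support for a direction, since it entered the test only through kinase-dead arrays; 4 are left without it. Ccnd1 ranged from 606 to 839 with a median of 681 on the wild-type arrays and from 844 to 938 with a median of 881 on the kinase-dead arrays, without overlap (0.35 ± 0.06, adjusted p = 0.000221).

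Ccnd3 read 115 to 184 (median 158) and 179 to 230 (median 213), with overlap between wild-type unstimulated and kinase-dead 4 h arrays (0.47 ± 0.09, adjusted p = 0.000571). Cdk4 read 533 to 706 (median 595) and 670 to 893 (median 749), 0.33 ± 0.07, adjusted p = 0.00166, and 2 further Cdk4 probe sets were called the same way (0.20 and 0.39). Cdkn1b read 1272 to 1881 (median 1478) and 1568 to 1993 (median 1780), 0.24 ± 0.05, adjusted p = 0.00189, and its second probe set was called too (0.27). For Cdkn1b the difference lay in the stimulated groups, since it was 0.02 between unstimulated cells. These 4 calls held in each of 19 alternatives. The 2 other Ccnd1 probe sets that passed lay at 0.13 and 0.27, neither called, and Ccnd3 had no other probe set that passed.

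**Figure D4:**
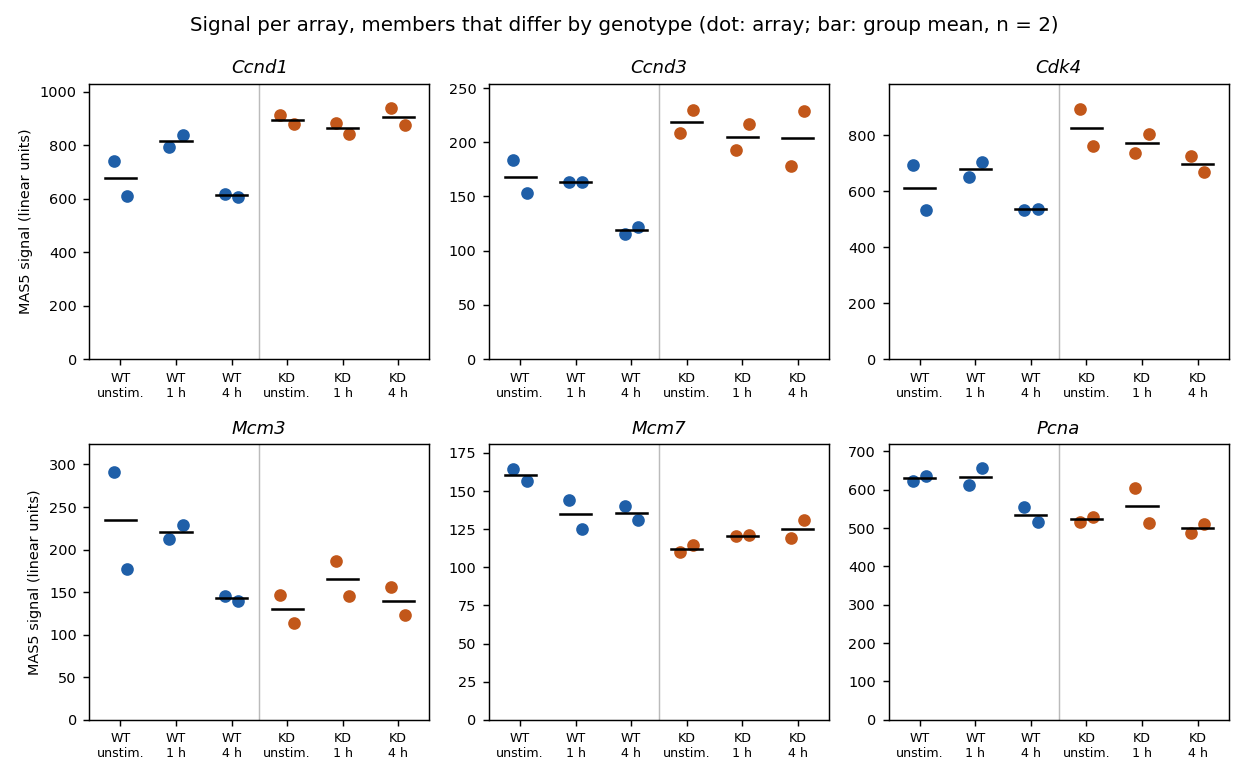
MAS5 signal on each of the 12 arrays for 6 genes called between the genotypes; dots are arrays, bars group means (n = 2), wild type left and kinase dead right of the line. Ccnd1 is the 1 gene of the 6 whose kinase-dead arrays (844 to 938) all lie above its wild-type arrays (606 to 839).

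Cdkn1c read 5.2 to 12.9 in wild type and 7.3 to 36.7 in kinase-dead cells (0.76 ± 0.28, adjusted p = 0.0445). Its value is given as a description: only 2 of its arrays, both kinase dead, reached the median signal, so a gene that passed this way had to be higher there. The call stood only without wild-type unstimulated replicate 2, kinase-dead unstimulated replicate 1 or kinase-dead 4 h replicate 2; leaving out any other array gave adjusted p of 0.0539 to 0.137.

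The 6 lower genes were 5 of S phase and Birc5. Mcm3 read 140 to 291 (median 195) in wild type and 114 to 187 (median 146) in kinase-dead cells (-0.41 ± 0.12, adjusted p = 0.0145). Cdt1, which loads the helicase with Cdc6, read 78.7 to 102 (median 82.7) and 51.8 to 77.3 (median 64.2), and was the 1 of the 6 without overlap (-0.37 ± 0.11, adjusted p = 0.0192). Mcm7 (-0.25 ± 0.09, adjusted p = 0.0389), Mcm4 (-0.16 ± 0.05, adjusted p = 0.0209), Pcna (-0.18 ± 0.06, adjusted p = 0.0329) and Birc5 (-0.17 ± 0.06, adjusted p = 0.0438) differed by less.

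None of those 6 kept its call in every alternative. Cdt1 was lost without wild-type unstimulated replicate 1 (0.0601) or kinase-dead 1 h replicate 2 (0.0629). Mcm3 was lost without replicate 2 of any kinase-dead group (0.0511 to 0.0539), and Mcm4 without wild-type 1 h or 4 h replicate 1, kinase-dead unstimulated replicate 2 or kinase-dead 4 h replicate 1 (0.0659 to 0.0789). Mcm7 kept its call only without replicate 2 of a wild-type group or of kinase-dead 4 h (otherwise 0.0561 to 0.11). Pcna kept it only without either wild-type unstimulated array, 1 h replicate 1 or 4 h replicate 2 of wild type, kinase-dead 1 h replicate 1 or kinase-dead 4 h replicate 2 (otherwise 0.0512 to 0.119). Birc5 kept it only without replicate 1 of wild-type unstimulated, wild-type 1 h or kinase-dead unstimulated (otherwise 0.0677 to 0.145). All of these are adjusted p.

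**Figure D5:**
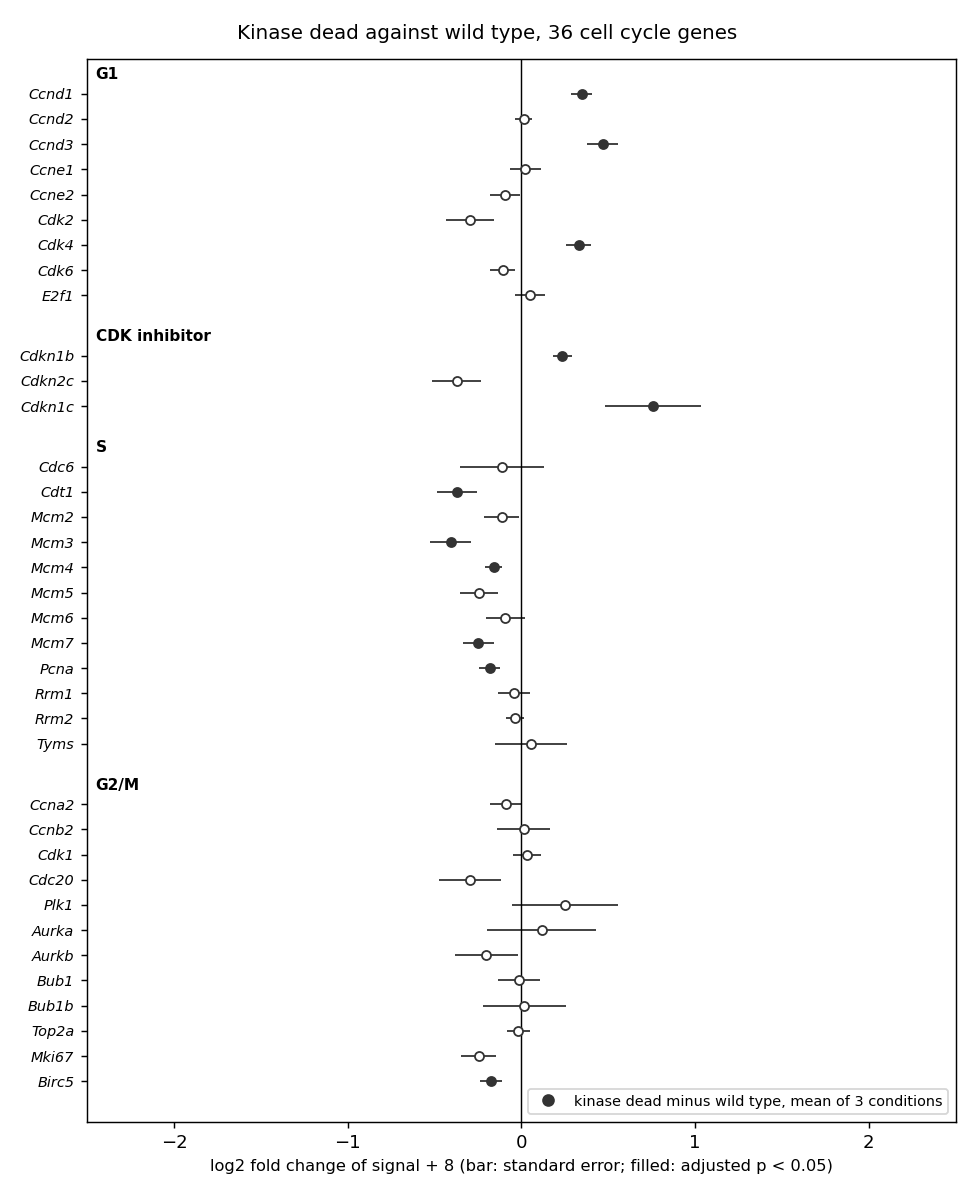
Kinase dead minus wild type, log2 of signal + 8, averaged over unstimulated, 1 h and 4 h groups, for 36 genes; points are fitted values, bars standard errors, filled points adjusted p under 0.05. The filled points to the right are Ccnd1, Ccnd3, Cdk4, Cdkn1b and Cdkn1c, the last tested only through its kinase-dead arrays, and those to the left are 5 S phase genes and Birc5.

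Further genes of the same pathways were read in 4 lists chosen by function, with earlier results of these data known. The counts called in these lists are therefore a description only. Of 11 other inhibitors and brakes 10 were tested. At 1 h in wild type 3 were called higher and 1 lower, where 2.91% and 4.55% of all genes were. At 4 h 4 were called higher and 1 lower, beside 4.66% and 7.39% of all genes. Btg2, an antiproliferative cofactor of the CCR4-NOT deadenylase, read 243 and 235 unstimulated, 1848 and 1877 at 1 h and 615 and 518 at 4 h in wild type. Its changes were 2.92 ± 0.13 (adjusted p = 1.12e-10) and 1.21 ± 0.13 (adjusted p = 4.67e-06). Kinase-dead Btg2 read 144 and 175, then 578 and 496 (1.70 ± 0.13, adjusted p = 4.63e-07), then 249 and 241 (0.60 ± 0.13, adjusted p = 0.0379). Its 1 h response was smaller than in wild type (kinase dead minus wild type -1.22 ± 0.18, adjusted p = 0.00195).

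Gadd45a, a stress gene that slows the G2 to M step, read 722 and 772 unstimulated, 1112 and 1144 at 1 h and 1298 and 1395 at 4 h in wild type, with changes of 0.59 ± 0.10 (adjusted p = 0.00122) and 0.84 ± 0.10 (adjusted p = 1.82e-05). In kinase-dead cells it read 426 and 470 unstimulated and 675 and 607 at 4 h (0.51 ± 0.10, adjusted p = 0.0275). The kinase-dead 4 h calls of Gadd45a and Btg2 were each lost in 7 of 12 fits with 1 array left out, with adjusted p up to 0.232 and 0.218. Unstimulated, Gadd45a was lower in kinase-dead cells (-0.73 ± 0.10, adjusted p = 6.52e-05). Btg1, a relative of Btg2, rose at 1 h in wild type (0.44 ± 0.09, adjusted p = 0.00428). Tob1, of the same family, fell at 4 h in wild type (-0.41 ± 0.12, adjusted p = 0.0302), which was lost without wild-type unstimulated replicate 2 (-0.21, adjusted p = 0.222) or either 4 h array (0.0882 and 0.14).

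Among the 31 of 35 other S phase genes that were tested, 0 were called higher and 4 lower in wild type at 4 h, and 27 lay below 0 (median -0.24). Of all genes 4.66% were called higher and 7.39% lower in that comparison, and 63.9% lay below 0 (median -0.12). Rpa2, of the single-strand binding complex, read 139 and 156 unstimulated against 35.1 and 72.9 (-1.39 ± 0.26, adjusted p = 0.00166). Rfc5, of the clamp loader, read 77.1 and 75 against 35.8 and 26.3 (-1.12 ± 0.27, adjusted p = 0.0113), a call lost without wild-type unstimulated replicate 1 (0.0539) or 4 h replicate 2 (0.0938). Gins1, of the helicase complex, read 77.9 and 55.0 against 38.0 and 35.3 (-0.72 ± 0.21, adjusted p = 0.0373), lost without wild-type unstimulated replicate 1 (-0.50, adjusted p = 0.255) or any wild-type 1 h or 4 h array (0.0503 to 0.137). From 1 h to 4 h in wild type 0 of the 31 were called higher and 5 lower, against 8.39% and 10.6% of all genes. Among the 5 was Gins1 (-0.91 ± 0.21, adjusted p = 0.00644). In kinase-dead cells limma called 0 of the 31 at 1 h (1 higher and 1 lower at an unadjusted p under 0.05), 0 at 4 h (0 and 0) and 0 from 1 h to 4 h (1 and 2).

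Of 50 other G2/M genes 45 were tested. At 4 h in wild type 2 were higher and 2 lower, with a median of -0.22. These counts are no larger a share than among all genes (4.66% higher, 7.39% lower, median -0.12). Cdc25b, the phosphatase that activates Cdk1, read 198 and 160 against 101 and 80.4 (-0.92 ± 0.16, adjusted p = 0.00103). Kif20a, a cytokinesis kinesin, was dim, at 30.7 and 27.6 against 5.6 and 2.8 (-1.61 ± 0.49, adjusted p = 0.0421), and leaving out any array but the 2 of kinase-dead unstimulated cells gave adjusted p of 0.0506 to 0.16.

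Tpx2, the activator of Aurora A on the spindle, moved in both genotypes and both ways. Wild type read 334 and 346, then 183 and 206, then 510 and 467. It fell at 1 h (-0.79 ± 0.14, adjusted p = 0.00141) and rose from 1 h to 4 h (1.30 ± 0.14, adjusted p = 3.1e-06). Kinase-dead cells read 289 and 269, then 159 and 127, then 270 and 252, with -0.94 ± 0.14 (adjusted p = 0.000923) and 0.84 ± 0.14 (adjusted p = 0.0017). At 4 h against unstimulated, wild-type Tpx2 was higher (0.51 ± 0.14, adjusted p = 0.0202), a call lost without unstimulated replicate 1 (0.0716) or 4 h replicate 1 (0.128) or 2 (0.0548). Plk4, the centriole duplication kinase, was lower in kinase-dead cells at 1 h (-0.55 ± 0.14, adjusted p = 0.047) and higher from 1 h to 4 h (0.52 ± 0.14, adjusted p = 0.0494), each lost in 8 of 12 fits with 1 array left out (up to 0.222 and 0.253). Anln, a cytokinesis scaffold, was higher from 1 h to 4 h in kinase-dead cells (0.83 ± 0.19, adjusted p = 0.0191), lost without any of those 4 arrays (0.0706 to 0.156).

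Of 17 other G1 and E2F-Rb genes 16 were tested, with 1 higher and 1 lower in wild type at both times. Of all genes 2.91% were called higher and 4.55% lower at 1 h, and 4.66% and 7.39% at 4 h. E2f7, a repressing E2F, read 115 and 129 unstimulated, 61.0 and 60.6 at 1 h and 103 and 100 at 4 h (-0.92 ± 0.17 at 1 h, adjusted p = 0.00224). Tfdp1, the dimer partner of E2F, was higher at 1 h (0.46 ± 0.11, adjusted p = 0.0153) and 4 h (0.41 ± 0.11, adjusted p = 0.0212), and Tfdp2 lower at 4 h (-0.77 ± 0.17, adjusted p = 0.00641). Tfdp1 was lost without wild-type unstimulated replicate 1 (0.093 and 0.142), 1 h replicate 2 (0.18) or either 4 h array (0.0527 and 0.138), and Tfdp2 without wild-type unstimulated replicate 2 (0.0516).

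Between unstimulated cells few genes of the S phase and G2/M lists were called, where 7.38% of all genes were called higher and 6.96% lower; the shares called lower were near that of all genes. The S phase list had 0 of 31 higher and 2 lower, led by Tk1 (thymidine kinase; -0.57 ± 0.18, adjusted p = 0.0441) and Dut (dUTPase; -0.52 ± 0.12, adjusted p = 0.00699). The G2/M list had 0 of 45 higher and 3 lower (Smc2, Hmgb2 and Ect2, from -0.52 to -0.38). Myc, the growth transcription factor, was the 1 of 16 G1 and E2F-Rb genes called, at 68.6 and 110 in wild type and 43.9 and 37.6 in kinase-dead cells (-0.97 ± 0.27, adjusted p = 0.0251). These calls were lost when 1 array was left out: Tk1 in 10 of 12 fits (up to 0.238), Smc2, Hmgb2, Ect2 and Myc in 3 each (up to 0.157, 0.143, 0.176 and 0.228), and Dut in 1, without wild-type unstimulated replicate 2 (0.0679). The brakes had 2 higher and 3 lower of 10. Averaged over conditions, Pola1 (DNA polymerase alpha; -0.59 ± 0.13, adjusted p = 0.00222), Dut (-0.41 ± 0.07, adjusted p = 0.0002) and the nuclear importer Kpna2 (-0.38 ± 0.07, adjusted p = 0.000604) were lower in kinase-dead cells, as was Gadd45a (-0.92 ± 0.06, adjusted p = 1.29e-09). Wee1, the kinase that inhibits Cdk1, was higher (0.56 ± 0.09, adjusted p = 0.000115). These 5 genes kept their calls in every alternative. Their arrays did not overlap between the genotypes, but that was a condition for naming them and is no further support. Such separation held for 0 of 16 G1 and E2F-Rb genes, 2 of 10 brakes, 2 of 31 S phase genes and 1 of 45 G2/M genes. Over all genes it held for 1265 of 12456.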

How the data were processed

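The values are MAS5 signals, array intensities that the authors deposited already summarised per probe set and scaled to a common trimmed mean, as the submitters' processing notes name MAS5 and the deposited columns show (trimmed mean 150, with 2% trimmed at each end). The MAS5 version is not given in the sources used here. Of 45101 probe sets, 34945 carried 1 gene symbol, 932 several and 9160 none. Control probe sets (64) were left out.

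Signals were analysed as log2(signal + 8). Testing required a signal of 25.5 or more (the median over the whole table) on 2 or more arrays, and the probe set with the highest mean stood for the gene (12456 genes). Mcm4, Mcm5, Mcm7, Rrm2 and Cdk4 were represented by probe sets marked as open to cross-hybridisation (suffix _x_at), as was Hmgb2 of the other lists. Mcm2, Mcm3, Aurkb and Bub1b, and Plk4 of the other lists, were represented by probe sets marked as shared by several transcripts (suffix _s_at). The signals of these genes may therefore not be specific to them. limma 3.58.1 in R 4.3.3 (lmFit, then eBayes with a variance trend; 6 group means, 6 residual degrees of freedom) gave 10 two-sided comparisons, each adjusted over all genes by Benjamini-Hochberg; every adjusted p printed here is limma's. The script was tested on simulated data. Figures were drawn with matplotlib 3.10.9.

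The title of wild-type unstimulated replicate 1 names no genotype, and the array was placed by the design of 6 arrays a genotype. The number of arrays, 2 a group, limits the precision. The members and lists were chosen with earlier results of these data known. Every called gene of the 36 is named, up to 8 a class and comparison; of the other lists, up to 3 called genes a comparison with the largest change and no overlap between arrays could be named. Alternatives changed the filter, the normalization, the pseudocount and the variance trend, or used a replicate block, the groups compared alone, all probe sets, and each array left out. Same-numbered arrays showed no strong shared deviation (15 pairs of groups, correlations -0.051 to 0.099). Nothing in the labels says that the numbers pair samples, and such correlations cannot show that they do not.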

Additional observations from a re-analysis of the deposited data

Results flagged for a closer look

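Some genes, 5 in all, responded differently in the 2 genotypes by limma's test of the difference itself, given as kinase dead minus wild type with n = 2 arrays a group. At 1 h these were Btg2 (-1.22 ± 0.18, adjusted p = 0.00195) and Btg1 (-0.59 ± 0.12, adjusted p = 0.0389). Btg1 read 3403 and 3871 unstimulated and 4958 and 4895 at 1 h in wild type, against 5207 and 5224 and then 4649 and 4739 in kinase-dead cells. The Btg1 call was lost in 9 of 12 fits with 1 array left out, with adjusted p up to 0.201.

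At 4 h they were Cdkn1b (0.55 ± 0.13, adjusted p = 0.024), Tob1 (0.74 ± 0.16, adjusted p = 0.0173) and Ect2 (0.67 ± 0.16, adjusted p = 0.0243), where 1.45% of all genes were called higher and 1.57% lower. Tob1 read 1271 and 1678 unstimulated and 1120 and 1083 at 4 h in wild type, against 1081 and 1034 and then 1342 and 1333 in kinase-dead cells. Ect2 read 470 and 544 and then 393 and 398 in wild type, against 383 and 390 and then 488 and 483. Both calls were lost when 1 of several arrays was left out, Tob1 in 5 of 12 fits (adjusted p up to 0.0797) and Ect2 in 7 of 12 (up to 0.0936). With arrays centred on their medians neither was called (Tob1 0.60, adjusted p = 0.0822; Ect2 0.52, adjusted p = 0.151), nor was Cdkn1b (0.40, adjusted p = 0.188).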

How the results depend on the processing

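Of 29 calls of a cell cycle gene in a comparison, 7 held in every alternative run with 1 probe set a gene, 22 were lost in at least 1, and 0 reversed. The 7 were Cdk6 at 4 h in wild type against both earlier groups, Mcm2 at 4 h in wild type, and Ccnd1, Ccnd3, Cdk4 and Cdkn1b between genotypes. Where no value shows it, the cause was not tested. The run over all probe sets gave counts of genes only and was not applied to single calls. Another probe set of the gene passed the filter for 21 of the 29 calls. One was called the same way for 2 of them and the opposite way for 0. The number of genes called of 36 was 1 in wild type at 1 h, with 2 at a pseudocount of 32, 0 without the filter, 2 with arrays centred on their medians, 0 without the variance trend, and 0 to 3 with 1 array left out. In wild type at 4 h it was 6, with 3 from the 2 groups alone (fewer samples) and 4 to 6 with 1 array left out. From 1 h to 4 h in wild type it was 5, with 2 without the filter, 8 after centring, 2 without the trend and 1 to 9 with 1 array left out. In kinase-dead cells it was 0 at both times in every alternative, and from 1 h to 4 h 0, with 2 from those groups alone and 1 over all probe sets. For the difference of the 4 h responses it was 1, with 2 under quantile normalization, 0 without the trend, 0 from the groups alone and 0 to 3 with 1 array left out. Between unstimulated cells it was 5, with 3 without the filter, 3 after centring, 1 without the trend, 0 from the groups alone and 1 to 5 with 1 array left out. Over the 3 conditions it was 11, and 5 to 11 with 1 array left out. With the replicate block the counts were 1, 7 and 6 in the wild-type comparisons, 0 in the 3 kinase-dead ones, 0 and 1 for the differences of the 1 h and 4 h responses, 5 between unstimulated cells and 10 over the 3 conditions; Ccna2 at 1 h and Birc5 between genotypes were lost (adjusted p = 0.0509 each).

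Centring moved the all-gene median by more than 0.1 in 3 comparisons: from -0.06 to 0.10 in wild type at 1 h, from 0.04 to -0.13 for the difference of the 1 h responses and from 0.10 to -0.04 for that of the 4 h responses. Counts over all genes moved by more than 1.5 times in several fits. In kinase-dead cells they went from 77 to 316 at 4 h without either wild-type unstimulated array, to 304 from the groups alone and to 22 without the trend, and from 407 to 57 at 1 h without the trend. In wild type at 4 h, 1501 genes were called, and 662 from the groups alone, and from 1 h to 4 h 2363, and 1375 without 1 h replicate 2; over all probe sets 6249 were called between genotypes in place of 3963 genes. The alternatives for the other pathway genes were chosen after seeing the data: of 59 such calls, 26 held in every one, 33 were lost in at least 1 and 0 reversed. Signals near or under 25.5 (Cdkn1c, Plk1, Aurka, Bub1b, Tyms, Cdc6) limit what can be read for those genes.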
